A study of Mus musculus with 8 samples.

Results

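E proteins and their Id inhibitors were followed in RNA of mouse pro-B cells, as the labels name them; these are B cell precursors of the bone marrow. The genes were taken by symbol, and all 6 of them (Tcf3, Tcf4, Tcf12, Id1, Id2 and Id3) were found among the 55487 genes of the count table. The 8 libraries fell into 2 groups of 4, one with the genotype CD25_KO and one wild type for CD25, which is the interleukin-2 receptor alpha chain and the product of Il2ra. Strain, age, sex, how the cells were sorted, and how the Il2ra allele was made are not given in the sources used here, and nothing states that the libraries of a group came from separate animals. The p-values therefore measure the spread between these libraries, which may be technical in part.

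E proteins are basic helix-loop-helix transcription factors that bind E-box sites in DNA as dimers. Tcf3 encodes E2A (the splice forms E12 and E47), Tcf4 encodes E2-2 and Tcf12 encodes HEB; in B cell precursors they switch on Ebf1, the surrogate light chain genes and the recombination genes. Id proteins carry a helix-loop-helix but no basic region, so that an E protein paired with one of them cannot bind DNA.

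The members share stretches of sequence in the helix-loop-helix region. These stretches are shown because the close members differ in base composition. Whether base composition had a part in their counts was not tested. The first pair gives 90 bases of coding sequence of Tcf3 and Tcf12 from GENCODE M21 transcripts (GRCm38), read 5′ to 3′ on the minus strand. Capitals mark the bases that differ between them. The Tcf3 stretch lies in exons 18 and 19 of 19 (chr10:80412827-80412887 and chr10:80410246-80410274, in that order). The Tcf12 stretch lies in exons 19 and 20 of 21 (chr9:71856305-71856365 and chr9:71849897-71849925, in that order).
Tcf3: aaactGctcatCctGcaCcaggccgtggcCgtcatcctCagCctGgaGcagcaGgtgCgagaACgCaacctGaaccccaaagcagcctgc
Tcf12: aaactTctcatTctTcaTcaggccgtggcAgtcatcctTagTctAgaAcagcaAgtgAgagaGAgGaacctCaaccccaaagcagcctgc
They were identical at 75 of 90 bases. G and C made up 62.2% of the Tcf3 stretch and 50% of the Tcf12 stretch. This pair covers the second helix and bases after it. The Id stretches given next cover the first helix, the loop and the start of the second helix, so they do not line up with the E protein stretches; capitals stand at the 33 positions that were not the same in all 3. The Id3 stretch lies in exon 1 (chr4:136144003-136144092, plus strand), the Id1 stretch in exon 1 (chr2:152736519-152736608, plus strand) and the Id2 stretch in exon 2 (chr12:25095812-25095901, minus strand).
Id3: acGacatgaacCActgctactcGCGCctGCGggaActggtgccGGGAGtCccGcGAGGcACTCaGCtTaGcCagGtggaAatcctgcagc
Id1: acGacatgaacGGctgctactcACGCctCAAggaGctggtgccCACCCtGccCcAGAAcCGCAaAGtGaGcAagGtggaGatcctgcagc
Id2: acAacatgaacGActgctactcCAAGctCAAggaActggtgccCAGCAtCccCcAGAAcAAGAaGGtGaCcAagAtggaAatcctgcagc
Id1 and Id2 were identical at 73 of 90 bases, Id3 and Id2 at 64, and Id3 and Id1 at 63. G and C made up 63.3% of the Id3 stretch, 61.1% of the Id1 stretch and 52.2% of the Id2 stretch. Over the whole coding sequence Id3 had a GC content of 63.6%, near the 63.4% of Tcf3 (63.35%).

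The libraries held 43974037 to 57988772 counts each. Il2ra, the targeted gene, had 145, 168, 244 and 168 CPM (counts scaled to a common library size) in libraries 1 to 4 labelled knockout, against 200.2, 216, 216 and 140.4 CPM in wild type 1 to 4. The groups overlapped, with a log2 fold change of -0.09 ± 0.19 (SE; edgeR quasi-likelihood test, adjusted p = 0.849). Counts were summed over all exons, so a deletion of part of the gene would not have to lower them; the gene neither bears out nor contradicts the labels here, and the group is called "labelled knockout". Y-linked genes were counted at 506 and 503 CPM in labelled knockout 2 and 4 and at 496 CPM in wild type 2, which also had 61.6 CPM of Xist, while the other 5 libraries had at most 2.73 CPM. Over all 18884 genes tested, 0 passed an adjusted p of 0.05 by edgeR (2388 had an unadjusted p under 0.05); DESeq2 called 6 and limma-voom 0. Without wild type 4, edgeR called 358 genes (1.84% of those tested) with higher levels in labelled knockout and 5 (0.0256%) with lower levels.

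The pro-B label was set against 10 markers. B lineage genes were abundant: Cd79a, a signalling chain of the B cell receptor, had 2160 ± 262 CPM (SD, n = 4) in labelled knockout and 1977 ± 193 CPM in wild type libraries. Kit, a receptor found on early pro-B cells, had only 1.20 ± 0.488 CPM in labelled knockout and 1.76 ± 1.06 CPM in wild type libraries. Dntt, the template-independent polymerase of the same stage, had 42.1 ± 27.1 CPM in labelled knockout and 79.3 ± 38.8 CPM in wild type libraries. Of the 10 markers, 4 had higher and 6 lower values in labelled knockout with 0 past the test. Genes of the B lineage were thus abundant in both groups. Kit was scarce in both, but other precursor genes among the 10 markers were not. The surrogate light chain genes Igll1 and Vpreb1 had means of 86.5 and 61.4 CPM in labelled knockout, against 163 and 112 CPM in wild type libraries. Both genes stood far below Cd79a. Neither Kit nor these genes settle the stage of the cells, since the 10 markers include none particular to a later B cell stage.

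Of the 6 members, 0 passed the test over all genes in either direction, beside 0% of all genes tested. Values in labelled knockout were higher for Tcf3, Id1 and Id3 and lower for Tcf4, Tcf12 and Id2, and the median log2 fold change over the 6 was 0.03, against 0.0033 over all genes tested. At an unadjusted p under 0.05 the members numbered 0, beside 12.6% of all genes tested (5.53% higher and 7.11% lower). The groups did not overlap for 1 member, Id2, which was lower in labelled knockout; 4.17% of all genes tested had no overlap in that direction and 6.79% in either. In bulk RNA, fewer cells of a type and less RNA per cell cannot be told apart.

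**Figure D1:**
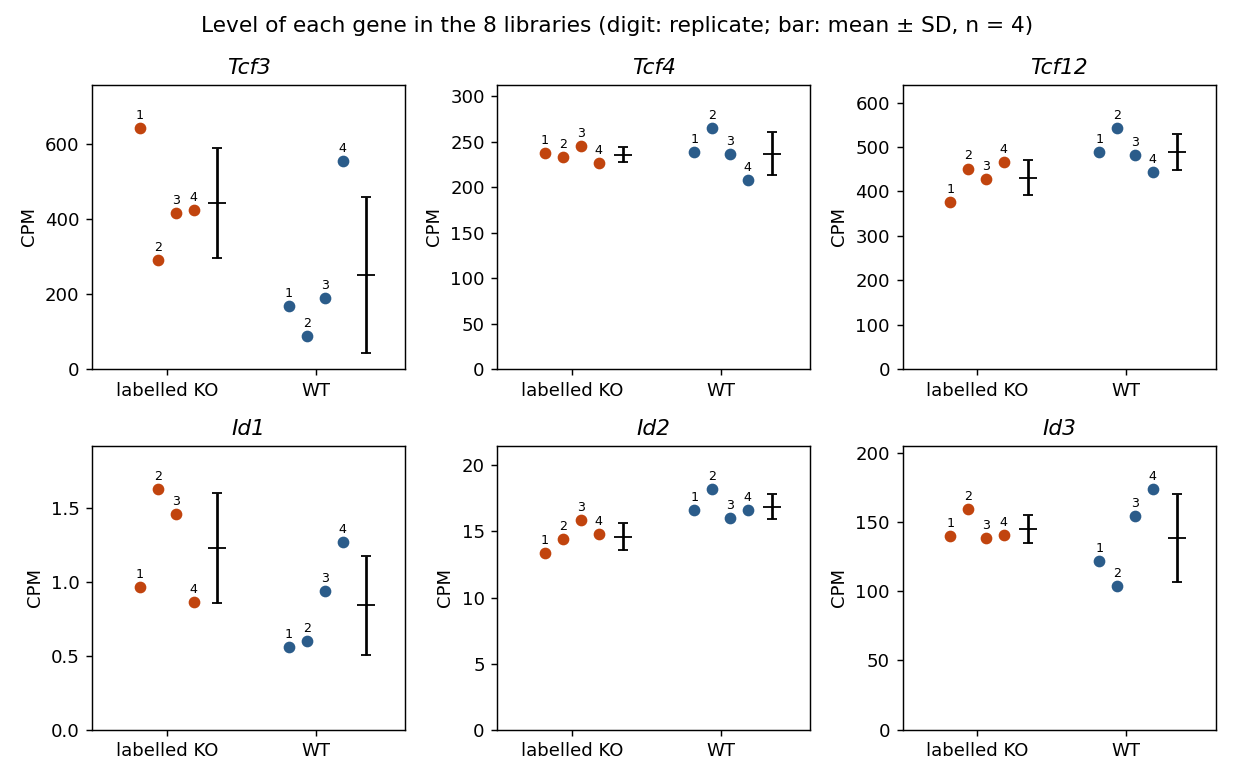
CPM (linear axis from 0) of each gene in the 4 libraries labelled KO (left) and the 4 WT libraries (right); digits are replicate numbers and bars are the mean ± SD (n = 4). Tcf3 spans 86.8 to 643 CPM with WT library 4 among the highest, Tcf4 and Tcf12 keep within a narrow band, and for Id2 every library labelled KO lies below every WT library.

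Tcf3 (ENSMUSG00000020167.14, chr10:80409514-80433647, minus strand of mm10) encodes the E protein on which B lineage commitment depends most. It had 643, 289.8, 417 and 424 CPM in labelled knockout 1 to 4, against 168, 86.8, 189 and 556 CPM in wild type 1 to 4. Every labelled knockout library lay above wild type 1 to 3, and wild type 4 lay above 3 of the 4 labelled knockout libraries, so the groups overlapped through that single library. The means were 443 ± 147 CPM in labelled knockout and 250.1 ± 209 CPM in wild type libraries (SD, n = 4 each). The log2 fold change was 0.83 ± 0.49 (SE; 95% interval -0.28 to 1.93, edgeR adjusted p = 0.483), which did not pass.

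One library decided the Tcf3 value. Without wild type 4 the log2 fold change was 1.58 ± 0.31 and passed (edgeR adjusted p = 0.0493), where 1.84% of all genes tested were called in that direction. With the presence of Y-linked counts as a covariate and wild type 4 left out, it was 1.75 ± 0.20 (edgeR adjusted p = 0.002), and 16% of all genes tested were then called in either direction. Over the 20 alternatives tried the Tcf3 value ran from 0.51 to 1.75, above 0 in each, with adjusted p from 0.002 to 0.995, and it passed in 3 of them, each without wild type 4. That library was the highest of the wild type group for Tcf3, so leaving it out had to raise the value. The smaller p-values without it are therefore no separate support for a difference. Among libraries without Y-linked counts Tcf3 had 643 and 417 CPM in labelled knockout 1 and 3, against 168, 189 and 556 CPM in wild type 1, 3 and 4. Among libraries with them it had 289.8 and 424 CPM in labelled knockout 2 and 4, against 86.8 CPM in wild type 2, the only wild type library of that kind.

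Tcf3 was also among the most variable genes of the series. Its log2 CPM had an SD of 0.986 over the 8 libraries, larger than that of 98.7% of 8955 protein-coding genes with at least 5 CPM, whose median SD was 0.241. The highest library held 7.41 times the CPM of the lowest. Within groups, with each library set against its own group's mean, the SD was 0.852, larger than in 98.1% of those genes.

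The Tcf3 level moved with that of GC-rich genes. Pooled over its annotated transcripts, Tcf3 had a GC content of 61.5%, higher than in 97.9% of 21897 protein-coding genes, whose median was 49.1%. The median deviation of the 182 genes over 60% GC from their own mean log2 CPM was 0.57, 0.01, 0.39 and 0.27 in labelled knockout 1 to 4, against -0.38, -1.01, -0.22 and 0.38 in wild type 1 to 4. Tcf3 itself deviated by 1.15, 0.00, 0.52 and 0.54 in labelled knockout 1 to 4, against -0.79, -1.74, -0.62 and 0.94 in wild type 1 to 4. The libraries thus fell in nearly the same order for the single gene and for the GC-rich class, with wild type 2 lowest and labelled knockout 1 highest in both. The pattern was not particular to that class. Fth1, with a GC content of 51.9%, deviated by 1.04, 0.02, 0.61 and 0.41 in labelled knockout 1 to 4. In wild type 1 to 4 it deviated by -0.73, -1.67, -0.56 and 0.87. Medians of the genes with 50 to 55% GC kept between -0.054 and 0.128.

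Removing from each library the trend of all genes with GC content, an adjustment chosen after seeing the data, lowered the SD of Tcf3 to 0.575 and its whole range to 1.61, against 2.89 before, on the log2 scale. The log2 fold change was then 0.55 ± 0.29 (edgeR adjusted p = 0.46), and 0.95 ± 0.17 without wild type 4 (edgeR adjusted p = 0.0338), a setting in which 4.93% of all genes tested were called in either direction. After that adjustment the 4 labelled knockout libraries deviated by 0.66, -0.02, 0.29 and 0.36, against -0.48, -0.95, -0.44 and 0.58 in wild type 1 to 4. Wild type 4 stayed the highest wild type library, so leaving it out had to raise the value here too. The part of base composition in the Tcf3 difference beyond the GC adjustment was not tested.

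**Figure D2:**
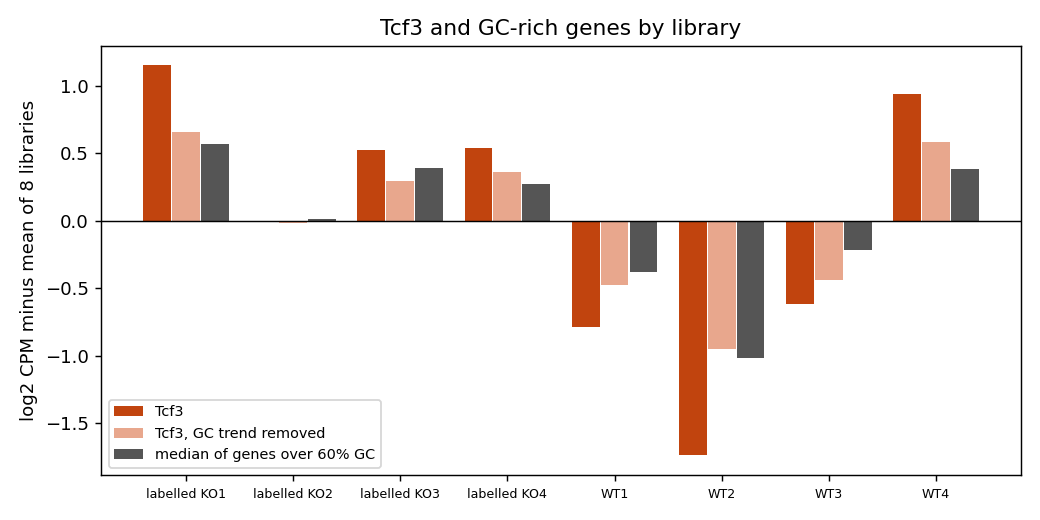
Deviation from the mean of the 8 libraries (log2 CPM) of Tcf3, of Tcf3 after the GC trend of each library was removed, and the median deviation of the 182 genes over 60% GC; libraries labelled KO are left and WT libraries right. All 3 quantities are above 0 in labelled KO 1, 3 and 4 and in WT 4, near 0 in labelled KO 2 and lowest in WT 2.

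Tcf4 (ENSMUSG00000053477.17, chr18:69343356-69689079, plus strand) encodes E2-2, the E protein of plasmacytoid dendritic cells that B cells also use. It had 238, 233, 246 and 227 CPM in labelled knockout 1 to 4, against 239, 265, 237 and 208 CPM in wild type 1 to 4. The wild type libraries took in the whole range of the labelled knockout libraries. The log2 fold change was -0.01 ± 0.09 (SE; 95% interval -0.21 to 0.20, edgeR adjusted p = 0.979); with no count filter it was 0.03. Tcf4 was the member with the narrowest spread, an SD of 0.0997 on the log2 scale, larger than in 5.65% of the 8955 genes.

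Tcf12 (ENSMUSG00000032228.16, chr9:71842688-72111871, minus strand) encodes HEB, which pairs with E2A in lymphoid precursors. It had 376, 452, 429 and 465 CPM in labelled knockout 1 to 4, against 488, 542, 481 and 444 CPM in wild type 1 to 4. Labelled knockout 1 was the lowest and wild type 2 the highest, and the groups overlapped through wild type 4, which lay below labelled knockout 2 and 4. The log2 fold change was -0.18 ± 0.10 (SE; 95% interval -0.40 to 0.04, edgeR adjusted p = 0.444), and it stayed between -0.28 and -0.10 over the 20 alternatives without passing in any. The ribosomal pseudogene Rpl15-ps2 lies on the other strand within the span of Tcf12 and was counted under its own name, with a total equal to 28.7% of the Tcf12 counts. All alignments of fragments that map to several places were counted, so that total may hold fragments from other loci. No strand setting is recorded for the counting, so reads of the 2 genes are not separable where exons overlap. Overlap was examined by span and not by exon.

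Among the inhibitors, Id3 (ENSMUSG00000007872.3, chr4:136143497-136145755, plus strand) is induced by antigen receptor signals through Egr factors and restrains E2A. It had 140.1, 159.6, 139 and 140.5 CPM in labelled knockout 1 to 4, against 121, 104, 154 and 174 CPM in wild type 1 to 4. The 4 labelled knockout libraries lay inside the wild type range. The log2 fold change was 0.07 ± 0.15 (SE; 95% interval -0.28 to 0.41, edgeR adjusted p = 0.874), and its sign changed to -0.01 with upper quartile factors and to -0.08 with the GC trend removed. Pooled over its transcripts Id3 had a GC content of 56.2%, higher than in 83.8% of protein-coding genes. Its SD over the 8 libraries was 0.234 on the log2 scale, larger than in 47.9% of the 8955 genes, and 0.154 with the GC trend removed.

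Id2 (ENSMUSG00000020644.9, chr12:25093799-25097140, minus strand) encodes the inhibitor that innate lymphoid and natural killer cells need. It had 13.4, 14.4, 15.8 and 14.8 CPM in labelled knockout 1 to 4, against 16.6, 18.2, 16.0 and 16.6 CPM in wild type 1 to 4. All 4 labelled knockout libraries were lower than all 4 wild type libraries, with labelled knockout 3 and wild type 3 only slightly apart. The means were 14.6 ± 1.01 CPM in labelled knockout and 16.9 ± 0.946 CPM in wild type libraries (SD, n = 4 each), and the log2 fold change of -0.21 ± 0.12 (SE; 95% interval -0.47 to 0.06) did not pass (edgeR adjusted p = 0.472). It was below 0 in all 20 alternatives, from -0.30 to -0.13.

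Natural killer cells and innate lymphoid cells, which express Id2, were read through 13 marker genes. These summed to between 11.1 and 39.2 CPM in labelled knockout and between 42.9 and 61.8 CPM in wild type libraries. Of the 12 tested, 10 had lower and 2 higher values in labelled knockout with 0 past the test, and the median log2 fold change was -0.78. That median was -0.31 with labelled knockout 1 and 3 left out and -1.29 with Y-linked counts as a covariate. With that covariate and wild type 4 left out, 3 of the 12 were called lower, namely Nkg7 (log2 fold change -1.68 ± 0.41, edgeR adjusted p = 0.0227), Klrd1 and Il2rb. In that setting 16% of all genes tested were called in either direction, and 788 of 19506 were called lower. It also called lower 3 of 9 neutrophil, 3 of 13 monocyte and macrophage, and 1 of 8 erythroid markers. Of the plasmacytoid dendritic, endothelial and stromal, and T cell markers it called 0. Wild type 4 was the lowest wild type library for Nkg7 and Il2rb, though not for Klrd1. Over all libraries Nkg7, a granule protein and the most abundant of the 13 markers, had 4.53 ± 3.06 CPM in labelled knockout and 9.85 ± 2.18 CPM in wild type libraries (SD, n = 4 each). Tbx21 was at 0 in at least 1 library and was not tested. Between the groups the marker sum was thus lower where Id2 was lower, but within labelled knockout the library with the lowest sum, number 3, had the highest Id2. The part of natural killer and innate lymphoid cells in the Id2 difference was not tested.

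Id1 (ENSMUSG00000042745.9, chr2:152736251-152737410, plus strand), a target of BMP signals, was scarce, with 25 to 89 counts in a library. It had 0.969, 1.63, 1.46 and 0.865 CPM in labelled knockout 1 to 4, against 0.560, 0.600, 0.937 and 1.27 CPM in wild type 1 to 4. The groups overlapped, with labelled knockout 4 below wild type 3 and 4. The log2 fold change was 0.55 ± 0.35 (SE; 95% interval -0.24 to 1.33, edgeR adjusted p = 0.509) and did not pass. Id4, the remaining Id gene, had 0, 1, 0 and 5 counts in labelled knockout 1 to 4, against 16, 3, 3 and 2 counts in wild type 1 to 4, and was too scarce to test.

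**Figure D3:**
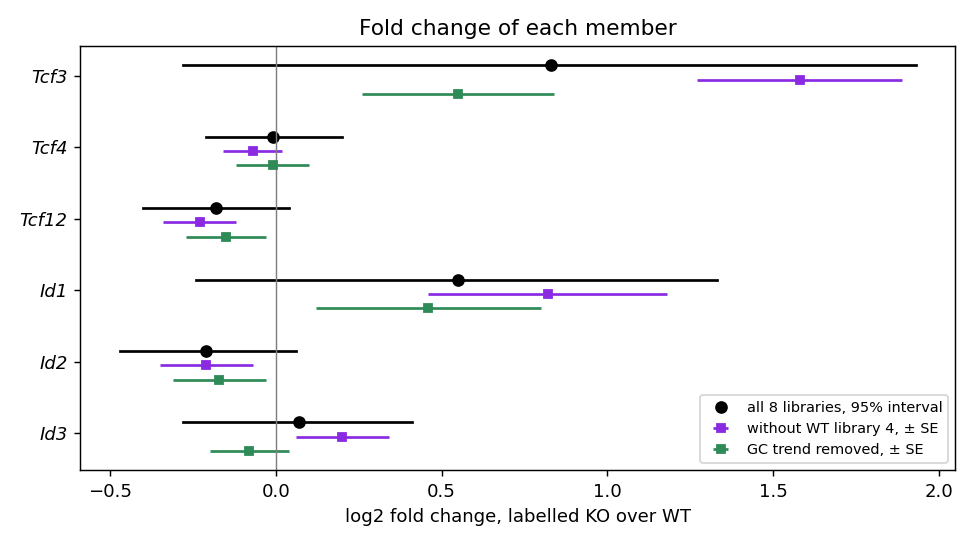
Log2 fold change (labelled KO over WT) of each gene over all 8 libraries with its 95% interval, without WT library 4 and with the GC trend removed (both ± SE). Every 95% interval includes 0; the Tcf3 value is 0.83 over all libraries, 1.58 without WT library 4 and 0.55 with the GC trend removed.

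Levels of different genes were compared per length of merged exons, as CPM per kilobase (RPKM). In the libraries labelled knockout the order was Tcf3 at 109.8 ± 36.3, Id3 at 80.8 ± 5.58, Tcf12 at 27.7 ± 2.52, Tcf4 at 8.62 ± 0.290, Id2 at 5.99 ± 0.412 and Id1 at 1.06 ± 0.321 RPKM (SD, n = 4). In wild type libraries Id3 at 77.2 ± 17.6 RPKM stood ahead of Tcf3 at 61.9 ± 51.7 RPKM, followed by Tcf12 at 31.5 ± 2.60, Tcf4 at 8.66 ± 0.858, Id2 at 6.92 ± 0.388 and Id1 at 0.726 ± 0.287 RPKM. Tcf3 and Id3 did not differ beyond their spread in either group, whereas the steps from Id3 down to Id1 were larger than the spread.

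The distance between the E proteins depended on the length used. Tcf4 has 46 annotated coding transcripts and merged exons of 27382 bases, and the length of its principal transcript is 4250 bases. Per length of the principal transcript, Tcf3 had 151 ± 50.05 RPKM in labelled knockout and 85.4 ± 71.3 RPKM in wild type libraries, Tcf12 had 68.4 ± 6.22 RPKM in labelled knockout and 77.6 ± 6.42 RPKM in wild type libraries, and Tcf4 had 55.5 ± 1.87 RPKM in labelled knockout and 55.8 ± 5.53 RPKM in wild type libraries. On that scale Tcf4 was still below Tcf12, though by a smaller step. Id3, with 113 ± 7.81 RPKM in labelled knockout and 108 ± 24.7 RPKM in wild type libraries, exceeded both.

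Summed per merged exon length, the 3 E protein genes over the 3 Id genes gave a ratio of 2.27, 1.13, 1.64 and 1.68 in labelled knockout 1 to 4, against 1.09, 1.003, 0.926 and 1.66 in wild type 1 to 4. On this scale the groups overlapped through wild type 4 alone. Per length of the principal transcript the ratio was 2.86, 1.69, 2.28 and 2.30 in labelled knockout 1 to 4, against 1.84, 1.96, 1.52 and 2.13 in wild type 1 to 4, and labelled knockout 2 then lay below wild type 1, 2 and 4. Per merged exon length Tcf3 made up 73.9 ± 7.05% of the E protein sum in labelled knockout and 54.2 ± 19.2% in wild type libraries (SD, n = 4 each). Per length of the principal transcript its share was 53.9 ± 8.86% in labelled knockout and 35.2 ± 18.8% in wild type libraries. Per merged exon length Id3 made up 92.0 ± 0.744% of the Id sum in labelled knockout and 90.7 ± 2.10% in wild type libraries. Without Tcf3, the ratio of Tcf4 and Tcf12 to the Id genes was 0.414 ± 0.0297 in labelled knockout and 0.495 ± 0.144 in wild type libraries, lower in labelled knockout by less than the wild type spread.

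The genes nearest to each member in pattern were found among protein-coding genes with at least 5 CPM, by the root mean square difference of their log2 deviations over the 8 libraries. For Tcf3 they were Vars, the valyl-tRNA synthetase (0.0611), Fam43a (0.0763) and Fth1, the ferritin heavy chain (0.0827). Vars had 590.2, 269, 406 and 402 CPM in labelled knockout 1 to 4, against 159, 72.7, 172 and 525 CPM in wild type 1 to 4, with wild type 4 high as for Tcf3. Vars had a GC content of 59.9%, Fam43a 57.7% and Fth1 51.9%.

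Genes near to Tcf12 were Matr3, a nuclear matrix protein gene (0.0282), and Zfp87 (0.0318), with GC contents of 41.0% and 46.0%. Tcf4 was nearest to Ift52, Sash3 and Cd2bp2, at 0.0301 to 0.0352. Id2 was nearest to Pex2, Srfbp1 and Hnrnph1, at 0.0464 to 0.0506, and Id3 to Cox14, Cox5b and Nfatc2ip, at 0.0488 to 0.0758. For Id1 the nearest genes, Hist1h2bg, Maml1 and Dot1l, were farther away, at 0.203 to 0.290. These distances are descriptions over 8 libraries.

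**Figure D4:**
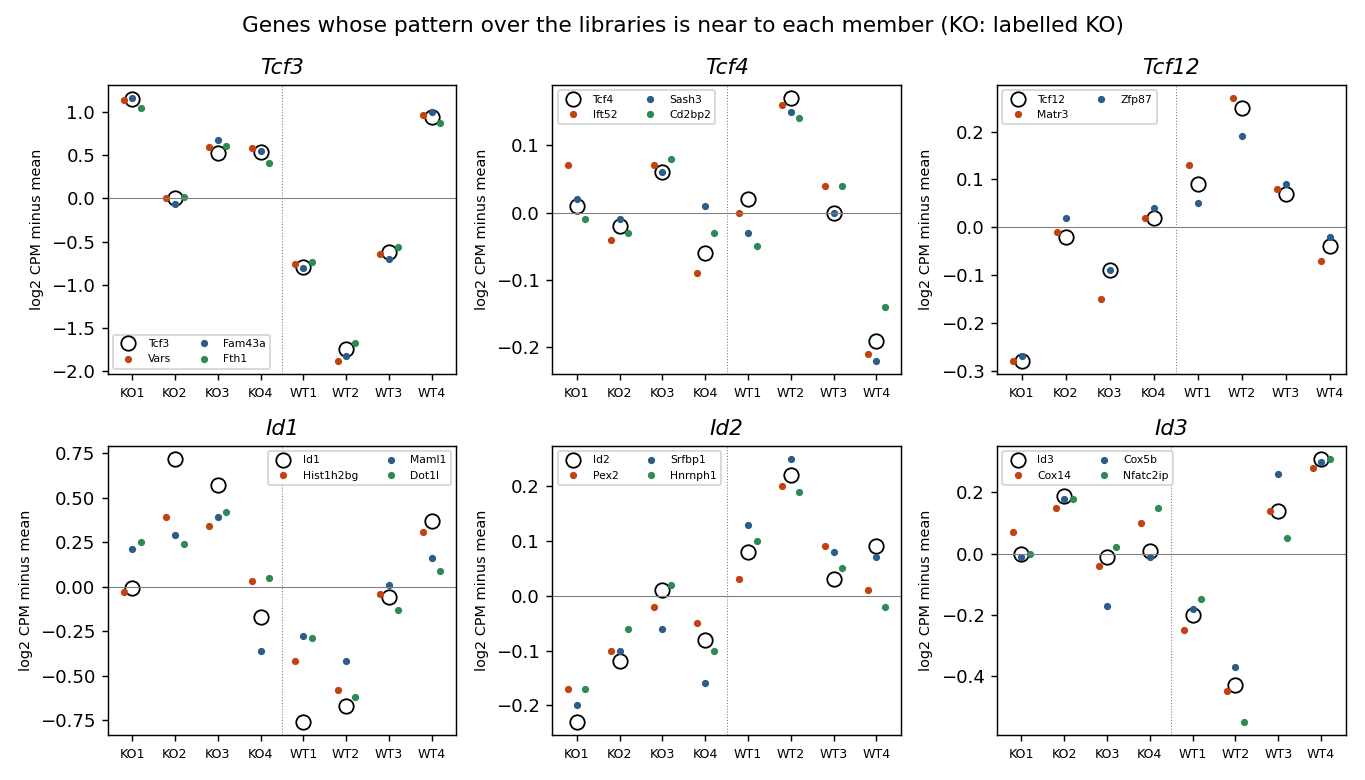
Deviation of log2 CPM from the mean of the 8 libraries for each gene (open circles) and protein-coding genes near to it in pattern (coloured dots, 3 a panel and 2 for Tcf12), with libraries labelled KO left of the dotted line and WT libraries right. For Tcf3 and its neighbours the highest libraries are labelled KO 1 and WT 4 and the lowest is WT 2, while for Tcf12 the lowest is labelled KO 1 and the highest WT 2.

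The other genes of the pathway were read by role, and 0 members of any list passed the test over all genes and all 8 libraries. Of the partners and cofactors of E proteins, 10 of 14 were tested, and all 10 had higher values in labelled knockout, beside 50.4% of all genes tested; the median log2 fold change was 0.22, and 0.07 with labelled knockout 1 and 3 left out. Cbfa2t3, a co-repressor that E proteins recruit, had 90.1, 51.4, 102 and 59.9 CPM in labelled knockout 1 to 4, against 48.5, 38.5, 59.5 and 58.8 CPM in wild type 1 to 4. Labelled knockout 1 and 3 were the highest, and the groups overlapped (log2 fold change 0.56 ± 0.23, edgeR adjusted p = 0.391). Lmo4, a LIM-only adaptor, had a log2 fold change of 0.42 ± 0.21 (edgeR adjusted p = 0.418).

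Repressors that bind the same E-box sites had 5 of 8 members tested, 2 with higher and 3 with lower values in labelled knockout. Hey1 and Hes1, both Notch targets, had log2 fold changes of 1.12 ± 0.60 and -0.17 ± 0.26, with Hey1 at under 1 CPM in every library. Inputs to the Id genes from EGR factors and from BMP or TGF beta signals had 12 of 15 members tested, 8 with higher and 4 with lower values, and a median log2 fold change of 0.20. Smad4, the common mediator of those signals, had 27.2 ± 4.35 CPM in labelled knockout and 19.1 ± 4.48 CPM in wild type libraries (SD, n = 4 each; log2 fold change 0.51 ± 0.20, edgeR adjusted p = 0.391). Egr1, an inducer of Id3, had 8.55 ± 3.07 CPM in labelled knockout and 5.03 ± 1.64 CPM in wild type libraries (log2 fold change 0.76 ± 0.30, edgeR adjusted p = 0.391).

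Genes for the turnover of E and Id proteins were split, 3 with higher and 3 with lower values of 6 tested. Cops5, the COP9 signalosome subunit that stabilises Id proteins, had 91.6, 104, 86.0 and 102.5 CPM in labelled knockout 1 to 4, against 108, 127, 120 and 111 CPM in wild type 1 to 4. All labelled knockout libraries were the lower ones, a pattern that 4.17% of all genes tested had in that direction (log2 fold change -0.28 ± 0.10, edgeR adjusted p = 0.391). Skp2, a ubiquitin ligase subunit that binds E2A, had a log2 fold change of -0.53 ± 0.23 (edgeR adjusted p = 0.393), with labelled knockout 3 lowest at 21.1 CPM.

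B lineage targets of E proteins had 22 of 22 members tested, 11 with higher and 11 with lower values in labelled knockout, and a median log2 fold change of 0.02. Ebf1, the factor that commits cells to the B lineage, had 773, 712, 951 and 607 CPM in labelled knockout 1 to 4, against 615, 544, 565 and 576 CPM in wild type 1 to 4. Foxo1, which drives the recombination genes, had 129, 97.0, 136 and 85.9 CPM in labelled knockout 1 to 4, against 85.1, 81.5, 82.7 and 77.6 CPM in wild type 1 to 4. For both genes labelled knockout 1 and 3 were the highest libraries; the groups did not overlap for Foxo1, as for 2.62% of all genes tested in that direction, and overlapped for Ebf1 through labelled knockout 4. The log2 fold changes were 0.40 ± 0.13 for Ebf1 and 0.46 ± 0.15 for Foxo1 (SE; edgeR adjusted p = 0.391 for each).

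The surrogate light chain genes, which are classical E2A targets, had values on the other side. Igll1 had 75.1, 159, 38.8 and 72.8 CPM in labelled knockout 1 to 4, against 206, 153, 88.6 and 204 CPM in wild type 1 to 4 (log2 fold change -0.91 ± 0.40, edgeR adjusted p = 0.393). Vpreb1 had a log2 fold change of -0.86 ± 0.38 (edgeR adjusted p = 0.393). The groups overlapped for Igll1, with labelled knockout 2 in the wild type range. Both genes were named after their values were seen.

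Without wild type 4, 1 gene passed in the list of inputs to the Id genes and 1 among the B lineage targets; both are named because of that value. Tgfbr2, a TGF beta receptor chain, had 198, 105, 144 and 139 CPM in labelled knockout 1 to 4, against 82.2, 57.7, 77.8 and 159 CPM in wild type 1 to 4. Irf8, a transcription factor of B and myeloid cells, had 523, 310, 395 and 400.1 CPM in labelled knockout 1 to 4, against 185, 105, 217 and 394 CPM in wild type 1 to 4. In both genes wild type 4 lay within the labelled knockout range and wild type 1 to 3 lay below it, as for Tcf3. Leaving out wild type 4 therefore had to raise both values, and the smaller p-values without it are no separate support for a difference. Without wild type 4 the log2 fold changes were 1.02 ± 0.21 for Tgfbr2 and 1.27 ± 0.25 for Irf8 (edgeR adjusted p = 0.0493 for each); over all 8 libraries they were 0.64 ± 0.30 and 0.85 ± 0.34 (edgeR adjusted p = 0.402 for Tgfbr2 and 0.391 for Irf8).

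The other settings without wild type 4 called more of these genes. With the GC trend removed, Lmo4 (0.61 ± 0.14, edgeR adjusted p = 0.0393), Tgfbr2 and Irf8 were called higher in labelled knockout, beside 4.93% of all genes tested in either direction. With Y-linked counts as a covariate, 16% of all genes tested were called in either direction, 2324 of 19506 higher and 788 lower. In that setting 3 of 10 partners (Lmo4, Cbfa2t3 and the acetyltransferase gene Kat2a), 3 of 13 inputs to the Id genes (Egr1, Tgfbr2 and Smad4) and 3 of 22 B lineage targets (Ebf1, Foxo1 and Irf8) were called higher. For the B lineage targets this was near the share of all genes tested that were called higher. In the turnover list Fzr1 and Wdr48 were called higher and Cops5 lower, of 6 tested. None of the surrogate light chain genes passed in these settings. Wild type 4 was the highest wild type library for Lmo4, Kat2a, Egr1, Tgfbr2, Smad4, Irf8, Fzr1 and Wdr48. For these genes both settings left out the highest wild type value, so their calls are no separate support for a difference. It was not the highest for Cbfa2t3, Ebf1, Foxo1 and Cops5.

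**Figure D5:**
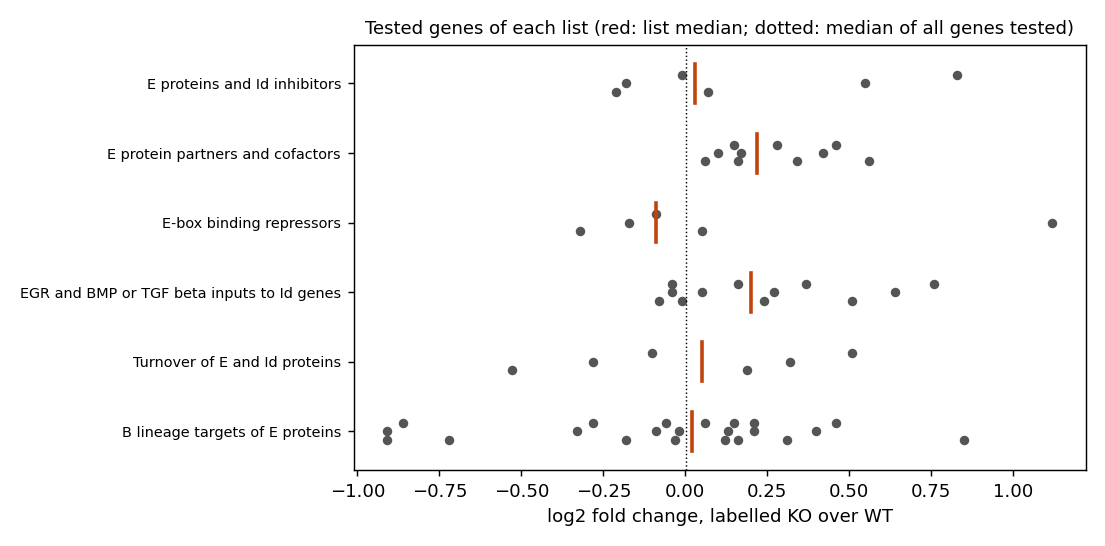
Log2 fold change (labelled KO over WT) of each tested gene of the 6 members and of the 5 pathway lists, one dot per gene; the red bar is the list's median and the dotted line the median of all genes tested. All 10 tested partners and cofactors lie above 0, whereas targets in the B lineage fall 11 on each side.

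Other cell types that the samples could hold were read through their markers, with 0 genes past the test over all 8 libraries in any list. Values were lower in labelled knockout for 7 of 8 tested erythroid, 9 of 9 neutrophil, 10 of 13 monocyte and macrophage, 7 of 9 plasmacytoid dendritic, 6 of 8 endothelial and stromal, and 3 of 5 T cell markers. Each marker was counted in some library, and Klk1, Lair1 and Runx2 of the plasmacytoid list, Cd14, Mpo, Kdr, Tek, Cd3e, Cd3g and Cd8a were at 0 in at least 1 library. With labelled knockout 1 and 3 left out, a setting chosen after seeing the data, the median log2 fold change turned to 0.26 for the monocyte and macrophage list (-0.43 over all libraries), to 0.10 for the neutrophil list (-0.45) and to 0.21 for the plasmacytoid list (-0.24), and was -1.07 for the erythroid list (-1.70). The most abundant markers were the globin gene Hbb-bs of red cells, Ngp of neutrophils, Lyz2 of monocytes and macrophages, Bst2 of plasmacytoid dendritic cells, Pecam1 of endothelium and Lat of T cells. Erythroid markers summed to between 266 and 2279 CPM in labelled knockout and between 2897 and 8642 CPM in wild type libraries, with wild type 4 the highest. Neutrophil markers summed to between 119.8 and 484 CPM in labelled knockout and 254 and 557 CPM in wild type libraries, and monocyte and macrophage markers to between 40.05 and 186 CPM in labelled knockout and 139 and 257 CPM in wild type libraries. The erythroid sums of the groups did not overlap, whereas the neutrophil and the monocyte sums did. Markers of plasmacytoid dendritic cells, in which Tcf4 is most prominent, summed to between 38.1 and 66.9 CPM in labelled knockout and 55.8 and 68.1 CPM in wild type libraries. Endothelial and stromal markers, most of them Pecam1, summed to between 237 and 331 CPM in labelled knockout and 223 and 325 CPM in wild type libraries. The groups overlapped for both of these sums. T cell markers were near 0, between 1.78 and 4.42 CPM in labelled knockout and between 2.34 and 5.38 CPM in wild type libraries. Labelled knockout 3 had the lowest sum for natural killer, plasmacytoid, monocyte, neutrophil and T cell markers, and labelled knockout 1 for erythroid markers; the part of these cells in the values of the E protein and Id genes was not tested.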

How the data were processed

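RNA of 8 samples labelled as pro-B cells was sequenced. Per the labels' protocols, RNA came from a Trizol extraction and a SMARTER mRNA-Seq kit was used for the libraries. The authors deposited whole-number fragment counts per gene; per the file headers, featureCounts 2.0.1 counted pairs over GENCODE M25 exons, took in all alignments of fragments that map to several places, and no strand setting is recorded. The submitters' processing notes name mm10, GATK 4.1.9.0 and STAR 2.7.7a. The exon length per gene in the deposited table is an annotation.

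Names, positions, transcripts and GC content came from GENCODE M21 (GRCm38), which named 55227 genes and left 260 unnamed; 0 columns belonged to other samples. Genes passing filterByExpr (18884) were TMM-scaled and tested with edgeR 4.0.16 in R 4.3.3 (robust glmQLFit, glmQLFTest, two-sided, genotype as the only term), with Benjamini-Hochberg adjustment over all genes at 0.05. SE came from the F value. CPM are TMM-scaled. Deviations used log2 CPM with a prior count of 2. No library repeated another (chi-square per degree of freedom at least 25.2 over 12 replicate pairs). The method was tested on simulated data. DESeq2 1.42.0 and limma 3.58.1 (voom with quality weights) were among the alternatives. The members, lists and tests were chosen with earlier results of these data known. Named were the members, Id4, Il2ra, the 3 nearest genes of each member (1 of those of Tcf12 is not reported here), the 2 genes of each pathway list with the smallest p, and for each marker list the highest and those at 0. Kit, Dntt, Igll1, Vpreb1 and the genes called without wild type 4 were named after their values were seen.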

Additional observations from a re-analysis of the deposited data

Results flagged for a closer look

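Id3 in labelled knockout 2 stood apart from the other libraries of its group, with 159.6 CPM, while the nearest of the others, labelled knockout 4, had 140.5 CPM. The gap was 0.91 of the whole range of the group, above the critical value of Dixon's test for 4 samples. Chance alone sets off about 1 in 20 such groups. The level lay inside the range of the wild type libraries.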

How the results depend on the processing

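Genes called over the table numbered 0 with edgeR and 6 with DESeq2. With 1 library left out they ranged from 0 to 363, the highest without wild type 4; they were 3112 with Y-linked counts as a covariate and 958 with the GC trend removed, both without wild type 4. Tcf3 had log2 fold changes of 0.56 to 1.58 with 1 library left out, and 1.75 and 0.95 in those settings without wild type 4. Values near 0 changed sign: Id3 was -0.01 with upper quartile factors, -0.08 with the GC trend removed, -0.02 with that trend removed and wild type 4 left out, and -0.02 to 0.20 with 1 library left out. Tcf4 was 0.03 with no count filter and -0.07 to 0.08 with 1 library left out, and Il2ra was -0.27 to 0.01. The median of B lineage targets was -0.13 with the GC trend removed and wild type 4 left out; list medians otherwise moved by less than the spread between replicates, some of them across 0. The cause of these changes was not tested. Id1 had no value under the stricter filter. Libraries of the same number had correlations of their deviations of -0.04, 0.655, 0.251 and -0.066 for numbers 1 to 4. Libraries of unlike number reached similar values, 0.674 for labelled knockout 1 with wild type 4 and 0.274 for labelled knockout 3 with wild type 1. The replicate numbers were therefore not taken as pairs. A fit with a replicate block called 0 genes and gave Tcf3 a log2 fold change of 1.13. Leaving out labelled knockout 1 and 3, chosen after seeing the data, called 0 genes but turned the medians of the monocyte, neutrophil and plasmacytoid marker lists to 0.26, 0.10 and 0.21, that of natural killer markers to -0.31 and that of E protein partners to 0.07. Id4 was too scarce to test, and the step between Tcf12 and Tcf4 depends on the length used.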
